A study of Rattus norvegicus with 36 samples.

Results

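Messenger RNA levels of 4 receptors that respond to the brain's own opioids and cannabinoids were followed in the nucleus accumbens of 9 rats. They are the mu opioid receptor Oprm1 (ENSRNOG00000018191), the kappa opioid receptor Oprk1 (ENSRNOG00000007647), the delta opioid receptor Oprd1 (ENSRNOG00000010531) and the cannabinoid receptor CB1, Cnr1 (ENSRNOG00000008223). The genes were chosen by name and taken by Ensembl ID, 4 of the 31546 gene IDs in the count tables, and 4 of 4 passed the filter on low counts. All rats were Sprague-Dawley animals aged 8 weeks that went through conditioned place preference, a procedure in which an animal learns to associate a compartment with a drug. Vulnerable and Non Vulnerable rats (3 of each) had 4 injections of cocaine at 20 mg/kg, given intraperitoneally in sessions of 20 min that alternated with saline sessions 6 h apart. Saline rats (3) are labelled with 4 injections of physiological serum, while the protocol has controls injected with saline 2 times a day on the same schedule. The series describes its animals as expressing or not expressing the preference for the cocaine compartment, and no label states which of the names Vulnerable and Non Vulnerable goes with which outcome. The tissue label reads nucleus accumbens and the extraction protocol also names the caudate putamen, so the share of dorsal striatum in a sample is not known.

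Opioid receptors and CB1 are G protein-coupled receptors that act through inhibitory Gi/o proteins, lowering cyclic AMP and damping transmitter release. Enkephalins act on mu and delta receptors and dynorphins on kappa receptors, and these peptides are made in the striatum by its projection neurons. CB1 sits mainly on axon terminals, where it responds to lipid messengers released by the postsynaptic cell. Tissue RNA reports the transcripts of cells whose bodies lie in the sample; the kappa receptors on dopamine axons, for example, are transcribed in the midbrain. Drugs of abuse act on these systems directly or through dopamine, which is why their receptors are studied in place preference.

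The promoter of Oprd1, the receptor whose transcript differed between groups, is shown with that of Oprm1, whose transcript did not pass the test. Both run 5′ to 3′ from 250 bases before the annotated start site to 50 after it, from RefSeq on GRCr8; 2 of the 4 receptors matched by symbol. Capitals mark the E-box CACGTG and the Sp1 box core GGGCGG (reverse complement CCGCCC), searched on both strands; the motifs do not overlap.
Oprd1, chr5:149624950-149625249, minus strand: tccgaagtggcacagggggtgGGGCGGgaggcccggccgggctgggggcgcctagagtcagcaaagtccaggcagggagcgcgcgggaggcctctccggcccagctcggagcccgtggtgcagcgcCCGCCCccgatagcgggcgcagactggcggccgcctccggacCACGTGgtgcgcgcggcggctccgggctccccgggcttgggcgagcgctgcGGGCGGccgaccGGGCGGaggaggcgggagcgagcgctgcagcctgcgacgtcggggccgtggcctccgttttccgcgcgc
Oprm1, chr1:45585733-45586032, plus strand: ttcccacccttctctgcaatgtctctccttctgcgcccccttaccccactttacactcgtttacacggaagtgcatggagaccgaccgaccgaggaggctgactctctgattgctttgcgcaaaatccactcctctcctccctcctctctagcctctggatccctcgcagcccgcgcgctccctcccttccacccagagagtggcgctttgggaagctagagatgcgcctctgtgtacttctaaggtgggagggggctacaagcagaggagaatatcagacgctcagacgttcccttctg

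The Oprd1 window was 79% G and C with 44 CpG dinucleotides, and 98.3% of the 33469 RefSeq rat promoter windows of the same length had no more CpG than that. It held the E-box, beginning 82 bases before the start site, which 6.42% of all windows share. It also held 4 copies of GGGCGG, read as printed at 229, 31 and 19 bases before the start and as its reverse complement CCGCCC at 124; 33.1% of windows hold at least 1 copy. The Oprm1 window was 57.7% G and C with 15 CpG and 0 copies of either motif. Another Oprm1 start site further upstream (chr1:45565121-45565420) had 39% G and C, 3 CpG and 0 copies. A cAMP response element, TGACGTCA, was found in none of these 3 windows and in 1.83% of all windows, and a TATA box, TATAAA, in none of the 3 and in 14.2%. These matches describe the letters and were not tested for binding.

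Counts of 4 technical replicate libraries per rat were summed, giving 41213813 to 64081679 counts per rat. The 36 comparisons of a receptor's 4 libraries within a rat gave 1 chi-square p under 0.05, for Oprd1 in Vulnerable rat 1 (97 to 142 counts per library, chi-square p = 0.0149), so the libraries of a rat scattered about as counting does. Levels are CPM, counts relative to the library size, with that size scaled by the trimmed mean of M values (TMM), and they do not correct for transcript length; receptors are therefore compared between rats and not ranked against each other by level. Non Vulnerable rat 1 had 18.2% of its counts in its 10 most counted genes, against 10.5% to 13.3% in the other rats, and the lowest TMM factor, 0.901. Log2 fold changes without that rat are given below for Oprd1, Oprm1 and Cnr1. None of the 97 genes listed as pathway members or markers of cell types and regions could be matched to an ID (0 of 31546 IDs have a symbol in the RefSeq table), so neighbouring pathway genes and the cell make-up of the samples were not tested.

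The delta opioid receptor Oprd1 was lower in Non Vulnerable rats than in both other groups, 2.59-fold below Vulnerable and 2.1-fold below Saline rats. Levels of the mu, kappa and CB1 receptors overlapped between all groups. Between Vulnerable and Non Vulnerable rats, 1 of 4 receptors passed the test, where 31.5% of all 16029 genes did. Between Non Vulnerable and Saline rats, 1 of 4 passed, where 14.7% of all genes did. Between Vulnerable and Saline rats 0 of 4 passed, as did 0% of all genes (edgeR; 807 genes had an unadjusted p under 0.05, DESeq2 called 30 and limma voom 0). Asked for any difference among the 3 groups, 1 of 4 receptors passed, against 21.3% of all genes. With so many genes differing, the count over the receptors does not set them apart from other genes. The median absolute log2 fold change of the receptors was 0.40, 0.28 and 0.12 in these comparisons, in the order given, beside 0.31, 0.24 and 0.11 over all genes.

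**Figure D1:**
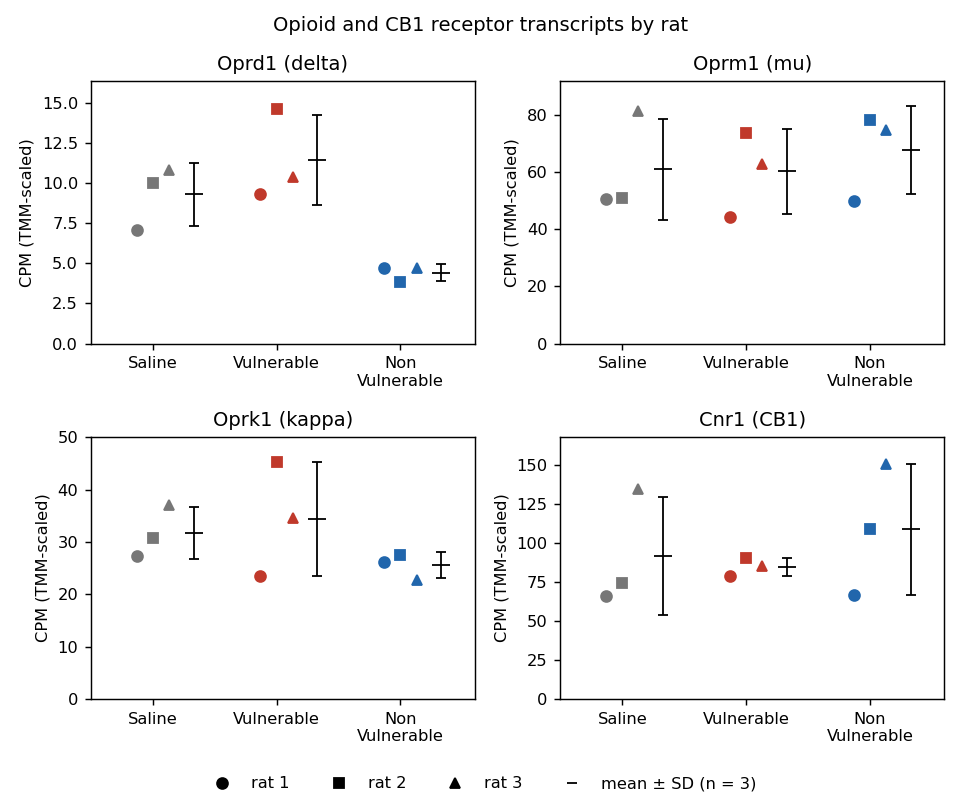
Level of each receptor in CPM (vertical axes, linear from 0) in each rat of the 3 groups; symbols number the rats and the bars give mean ± SD. Oprd1 lies between 3.81 and 4.73 CPM in Non Vulnerable rats, below all 6 other rats, while the groups overlap for the other receptors.

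Oprd1, which binds enkephalins, stood at 4.71, 3.81 and 4.73 CPM in Non Vulnerable rats 1 to 3. In Saline rats it stood at 7.1, 9.97 and 10.8 CPM, and in Vulnerable rats at 9.31, 14.6 and 10.4 CPM. Every Non Vulnerable rat lay below every other rat, and Vulnerable and Saline rats overlapped. The counts behind these levels were 213, 186 and 191 in Non Vulnerable, 359, 416 and 501 in Saline and 480, 743 and 697 in Vulnerable rats. The gap was also seen library by library, with 3.48 to 5.77 CPM of the library total in the 12 Non Vulnerable libraries, 6.79 to 12.2 in the 12 Saline and 7.92 to 15.1 in the 12 Vulnerable ones. Libraries of a rat are repeats of the same sample and add no animals.

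The mean Oprd1 level was 4.42 ± 0.524 CPM for Non Vulnerable, 9.29 ± 1.94 for Saline and 11.4 ± 2.79 for Vulnerable rats (SD, n = 3). Vulnerable rats exceeded Non Vulnerable rats 2.59-fold, with a 95% interval of 1.84 to 3.63 (log2 fold change 1.37, SE 0.216, edgeR adjusted p = 0.00319). The groups did not overlap, which held for 46.7% of all genes, and 3.4% of the genes tested had a change of this size or larger. Saline rats exceeded Non Vulnerable rats 2.1-fold, interval 1.5 to 2.95 (Non Vulnerable minus Saline, log2 fold change -1.07, SE 0.216, edgeR adjusted p = 0.0169). These groups did not overlap either, as for 35% of all genes, and 3.14% of genes changed as much. Both comparisons use the same Non Vulnerable rats and so are not independent of each other. Between Vulnerable and Saline rats the ratio was 1.23, interval 0.886 to 1.71, which includes equal levels (log2 fold change 0.30, SE 0.21, edgeR adjusted p = 0.908); 0 of the 4 receptors had groups apart here, beside 11.9% of all genes. In whole-tissue RNA, fewer cells that express a receptor and less of its RNA per cell cannot be told apart.

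**Figure D2:**
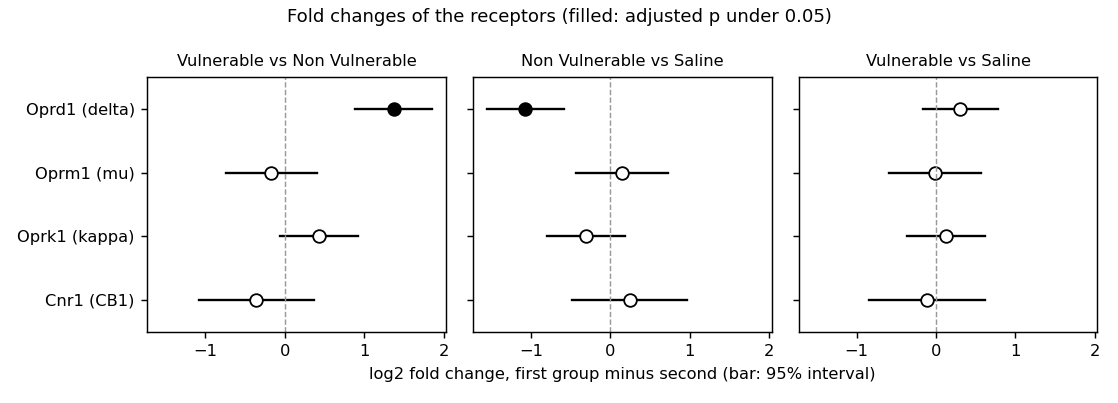
Log2 fold change of each receptor in 3 comparisons (horizontal axis, first group minus second) with its 95% interval; filled points passed the test. Oprd1 is filled at 1.37 and -1.07, and all intervals of the other receptors cross 0.

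The higher Oprd1 level of Vulnerable over Non Vulnerable rats passed the test with any of the 9 rats left out, at log2 fold changes of 1.16 to 1.55. The lower level of Non Vulnerable than Saline rats kept a log2 fold change of -1.28 to -0.97, and missed the threshold without Saline rat 2 (-1.02, edgeR adjusted p = 0.0736) or without Non Vulnerable rat 2 (-0.97, edgeR adjusted p = 0.0675). Without Non Vulnerable rat 1, the rat with the uneven count distribution, the log2 fold changes were 1.44 and -1.14 (edgeR adjusted p = 0.00505 and 0.0194). Vulnerable rat 2 held the highest Oprd1 level of all rats, and the Vulnerable minus Saline log2 fold change of 0.30 became 0.09 without it.

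**Figure D3:**
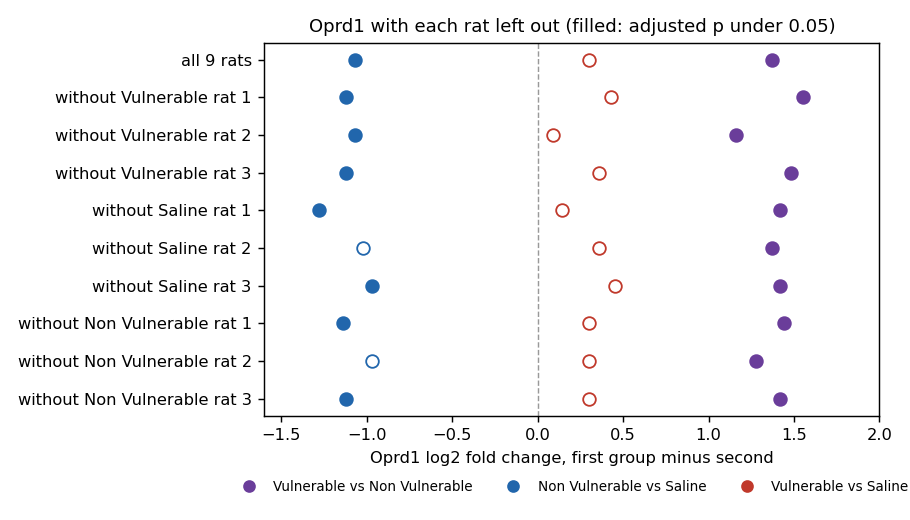
Oprd1 log2 fold change (horizontal axis) in each comparison with all 9 rats and with each rat left out in turn (rows); filled points passed the test. Vulnerable against Non Vulnerable is filled in every row, Non Vulnerable against Saline opens in 2 rows, and Vulnerable against Saline is open throughout.

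Oprk1, the dynorphin receptor, had the same order of group means as Oprd1 but with overlapping rats. It stood at 23.5, 45.2 and 34.6 CPM in Vulnerable rats 1 to 3, at 27.3, 30.7 and 37.1 in Saline and at 26.2, 27.6 and 22.8 in Non Vulnerable rats. Vulnerable rat 1 lay among the Non Vulnerable rats, and the other Vulnerable rats lay above them. Means were 34.4 ± 10.9, 31.7 ± 4.96 and 25.5 ± 2.46 CPM (SD, n = 3) in Vulnerable, Saline and Non Vulnerable rats. In this order, the rats of neighbouring groups overlapped. Vulnerable over Non Vulnerable gave a ratio of 1.35, interval 0.962 to 1.89 (log2 fold change 0.43, SE 0.215, edgeR adjusted p = 0.15). That result depended on single Vulnerable rats. Without Vulnerable rat 1 the log2 fold change was 0.69 and passed the test (edgeR adjusted p = 0.0224), and without Vulnerable rat 2 it was 0.19 (edgeR adjusted p = 0.487). Against Saline, Oprk1 had a log2 fold change of -0.31 in Non Vulnerable rats (SE 0.216, edgeR adjusted p = 0.351) and of 0.12 in Vulnerable rats (SE 0.214, edgeR adjusted p = 0.947).

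Oprm1, the receptor through which morphine acts, varied more within each group than between the group means. Its levels were 44.2, 73.7 and 62.9 CPM in Vulnerable rats 1 to 3, while Saline rats had 50.5, 51.1 and 81.4 and Non Vulnerable rats 50, 78.2 and 74.9. Each group held a rat at 50.5 CPM or below and a rat at 73.7 CPM or above. The Non Vulnerable mean was 67.7 ± 15.4, the Saline mean 61 ± 17.7 and the Vulnerable mean 60.3 ± 14.9 CPM (SD, n = 3), an order well inside the spread. The log2 fold change of Vulnerable minus Non Vulnerable rats was -0.17, interval -0.74 to 0.41 (edgeR adjusted p = 0.635). That of Non Vulnerable minus Saline was 0.15, interval -0.43 to 0.73, and that of Vulnerable minus Saline -0.02, interval -0.59 to 0.56 (edgeR adjusted p = 0.722 and 0.994). These intervals leave room for changes of up to about 1.68-fold. Without Non Vulnerable rat 1 the first 2 log2 fold changes were -0.33 and 0.31 (edgeR adjusted p = 0.34 and 0.417). In RefSeq, 3 other genes (Ipcef1, LOC134484992 and Yes1-ps1) overlap the Oprm1 locus, and the strand setting of the counting is not given, so some of its reads could belong to them.

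Cnr1 had the widest spread of the 4 receptors in Saline and Non Vulnerable rats. Non Vulnerable rats 1 to 3 stood at 66.6, 109 and 151 CPM, Saline rats at 66, 74.6 and 135, and Vulnerable rats at 78.9, 90.5 and 85.3. The Vulnerable rats lay close together, inside the range that each of the other groups spanned. Means were 109 ± 42.4, 91.8 ± 37.5 and 84.9 ± 5.81 CPM (SD, n = 3) in Non Vulnerable, Saline and Vulnerable rats. The highest rat exceeded the lowest 2.27-fold in the Non Vulnerable, 2.04-fold in the Saline and 1.15-fold in the Vulnerable group; a difference in spread was not tested. Log2 fold changes were -0.36 for Vulnerable minus Non Vulnerable (interval -1.08 to 0.37), 0.25 for Non Vulnerable minus Saline (-0.48 to 0.97) and -0.11 for Vulnerable minus Saline (-0.84 to 0.61), with edgeR adjusted p of 0.411, 0.633 and 0.968. A level 2-fold higher in Non Vulnerable than in Vulnerable rats is inside the first of these intervals. Without Non Vulnerable rat 1 the first 2 log2 fold changes were -0.60 and 0.48 (edgeR adjusted p = 0.137 and 0.261). With each rat left out in turn, the first ran from -0.60 to -0.05. Across all 9 rats, the biological coefficient of variation fitted by edgeR was 27.4% for Cnr1, 22% for Oprm1, 19.7% for Oprd1 and 18.9% for Oprk1, against a median of 13.8% over all genes. In RefSeq, LOC120102853 and LOC120103344 overlap the Cnr1 locus, while 0 genes overlap those of Oprd1 and Oprk1.

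Ratios of receptors within a rat ask whether Oprd1 differed relative to the other receptors, and library size and scaling cancel in them. For every 100 Oprm1 reads there were 9.43, 4.88 and 6.31 Oprd1 reads in Non Vulnerable rats 1 to 3. Saline rats had 14.1, 19.5 and 13.3, and Vulnerable rats 21.1, 19.8 and 16.5. All Non Vulnerable rats lay below all others. Per 100 Oprk1 reads, Oprd1 had 18, 13.8 and 20.7 reads in Non Vulnerable, 26, 32.5 and 29.1 in Saline and 39.6, 32.3 and 30.1 in Vulnerable rats. Per 100 Cnr1 reads it had 7.07, 3.5 and 3.12 in Non Vulnerable, 10.8, 13.4 and 8 in Saline and 11.8, 16.1 and 12.2 in Vulnerable rats. The Non Vulnerable rats were again apart from both other groups in each ratio.

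On the log2 scale the Oprd1 ratio differed between Vulnerable and Non Vulnerable rats by 1.52 to Oprm1, 0.97 to Oprk1 and 1.64 to Cnr1. Non Vulnerable minus Saline differences were -1.22, -0.75 and -1.30. Each of these 6 had an exact two-sided permutation p of 0.1, the smallest that 3 rats against 3 can give, and an adjusted permutation p of 0.257 over the 18 ratio comparisons made. This exact test of 3 rats against 3 cannot reach a threshold of 0.05, and the ratios were given no other test. The ratio of Oprm1 to Oprk1 was also without overlap between Vulnerable and Non Vulnerable rats, at 188, 163 and 182 Oprm1 reads per 100 Oprk1 reads in Vulnerable and 191, 283 and 329 in Non Vulnerable rats (log2 difference -0.56, exact permutation p = 0.1). Non Vulnerable rat 1 stood just above Vulnerable rat 1 there. Of the 6 ratios, 4 had no overlap between Vulnerable and Non Vulnerable rats, 3 between Non Vulnerable and Saline, and 0 between Vulnerable and Saline. All of these except Oprm1 to Oprk1 are ratios of Oprd1, so they repeat its separation and are not independent. Among single genes, 46.7%, 35% and 11.9% had groups without overlap in these comparisons. The share over all gene pairs was not computed.

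**Figure D4:**
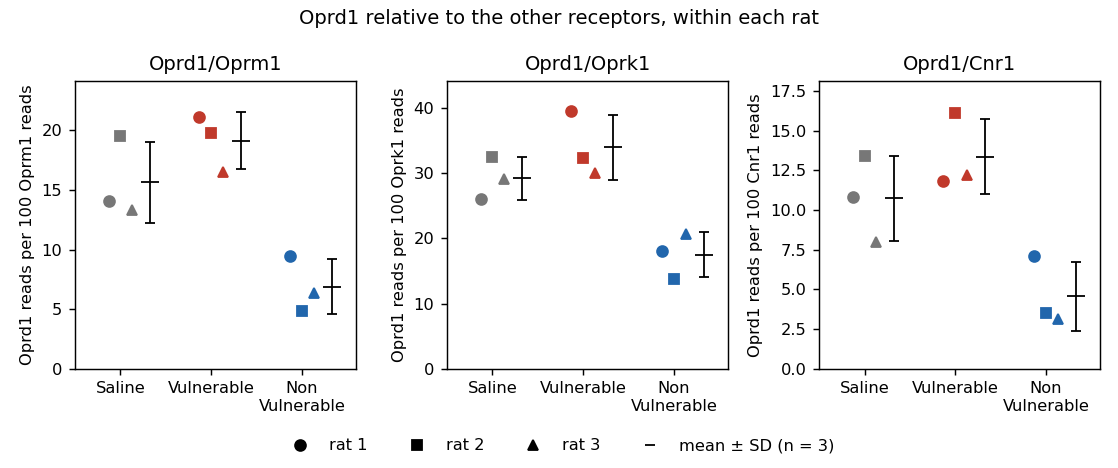
Oprd1 reads per 100 reads of Oprm1, Oprk1 or Cnr1 (vertical axes, linear from 0) in each rat; symbols number the rats and the bars give mean ± SD. Non Vulnerable rats lie below all Saline and Vulnerable rats in all 3 ratios, at 9.43 reads or fewer per 100 Oprm1 reads.

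Oprm1 and Cnr1 levels varied in parallel from rat to rat. Over the 9 rats, log2 CPM of both receptors correlated at r = 0.83 (exact permutation p = 0.00508, 0.0305 adjusted over 6 receptor pairs), with Spearman's rho 0.83 (exact permutation p = 0.00827, adjusted 0.0496). Without the 2 rats farthest from the median of Oprm1, r was 0.85 over 7 rats, and r was 0.82 for deviations from the group means. Rat 1 of each group was lowest in its group for both receptors. Oprm1 levels left a gap between 51.1 and 62.9 CPM, with 4 rats below it and 5 above, too few on either side for a correlation of their own. Of all genes tested, 1.03% had an r with Oprm1 at least as high as that of Cnr1, and for 164 genes it was higher. All values of a rat share its library and its dissection, and cell make-up could not be measured here.

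**Figure D5:**
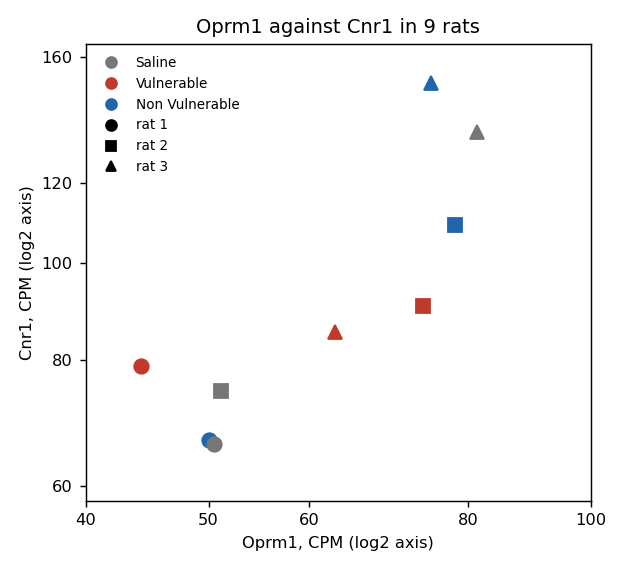
Cnr1 against Oprm1 level in CPM (both axes on a log2 scale) in 9 rats, coloured by group, with symbols for the rat numbers. Rats low in Oprm1 (44.2 to 51.1 CPM) are the 4 lowest in Cnr1, and all 3 groups have rats both within and above this Oprm1 range. Above it, Cnr1 stood at 85.3 and 90.5 CPM in Vulnerable rats and at 109 to 151 CPM in Saline and Non Vulnerable rats.

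Oprk1 and Oprd1 gave r = 0.73 (exact permutation p = 0.026, adjusted 0.0779) and rho = 0.75 (exact permutation p = 0.0255, adjusted 0.0765), which did not pass after adjustment. Without the 2 rats farthest from the median of Oprk1, r fell to 0.48. Of all genes tested, 5.65% had an r with Oprk1 at least as high as that of Oprd1. The other 4 pairs had r from -0.15 to 0.45, with exact permutation p of 0.228 or more. For deviations from the group means, r was 0.72 for Oprk1 and Oprd1 and 0.71 for Oprm1 and Oprk1. It was 0.49 for Oprm1 and Oprd1, 0.38 for Oprd1 and Cnr1 and 0.26 for Oprk1 and Cnr1. High r values of deviations were thus not limited to Oprm1 and Cnr1. The r values of deviations were not tested, and their share over all genes was not computed.

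The gene whose log2 CPM followed Oprd1 most closely over the 9 rats was ENSRNOG00000028047 (r = 0.99), which averaged 13.9 ± 0.385 CPM over the Non Vulnerable, 18.1 ± 0.82 over the Saline and 19.5 ± 1.61 over the Vulnerable rats (SD, n = 3). A correlation with Oprd1 of at least 0.9 was reached by 805 genes, or 5.02% of those tested. The same r was reached by 94 genes for Oprk1, 69 for Cnr1 and 37 for Oprm1. The closest to each were ENSRNOG00000046949 for Oprk1 (r = 0.99), ENSRNOG00000007445 for Cnr1 (r = 0.98) and ENSRNOG00000031760 for Oprm1 (r = 0.96). These are the highest of many correlations over 9 rats that share groups and are given as a description, and the files pair none of these IDs with a gene name.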

How the data were processed

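Per the labels' protocols, polyA RNA was made into libraries with a strand-specific kit. HTSeq 0.5.3, STAR and bcl2fastq 2.17.1.14 are listed in the submitters' processing notes; for build, annotation and strand setting, nothing is given in the sources used here. The authors deposited raw read counts per Ensembl gene ID, 1 table for each of 36 libraries, with no gene names; receptor symbols come from the rule that chose the genes. The 4 technical replicates of a rat were summed to 1 sample. Rats are taken as separate animals because the labels number them.

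Counts were tested across all genes with edgeR 4.0.16 (R 4.3.3; filterByExpr, TMM, robust glmQLFit with 1 coefficient per group over 9 rats, 6 residual degrees of freedom), with Benjamini-Hochberg adjustment over 16029 genes and a threshold of 0.05. Intervals are 95% intervals from the edgeR SE and edgeR's total degrees of freedom. These add to the residual ones by sharing information on the spread across genes. Log2 CPM used a prior count of 2. Depth per rat was 41213813 to 64081679 counts, and a receptor had 40 to 1609 counts in a library. The fit was tested on simulated data. Alternatives were DESeq2 1.42.0, limma 3.58.1 (voom), other scalings and filters, a block for rat number, fits of only the groups compared, and fits without each rat in turn. The receptors, the lists and the tests were chosen with earlier results of these data known; the named genes are the 4 receptors and, as an ID, the gene of highest correlation with each. The correlations between receptors were not among the planned tests and were added after the levels had been seen. Gene lists (97 symbols in 16 lists) could not be matched to IDs and were left out.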

Additional observations from a re-analysis of the deposited data

Results flagged for a closer look

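The departure of Oprd1 from the shared Saline rats differed between the cocaine groups, by the test of the difference itself: the log2 difference, Vulnerable minus Non Vulnerable, was 1.37 (edgeR adjusted p = 0.00319), higher in 3 of 3 Vulnerable than in any Non Vulnerable rat. The Saline level cancels in it, so this is the same comparison as Vulnerable against Non Vulnerable rats. Of all genes, 31.5% passed this test and 46.7% had groups without overlap in this comparison.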

How the results depend on the processing

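With all 9 rats kept, 8 alternatives (7 for the test of any difference) left the number of receptors called at 1, 1, 0 and 1 in the comparisons of Vulnerable with Non Vulnerable, Non Vulnerable with Saline, Vulnerable with Saline and any difference. The Oprd1 log2 fold change ran from 1.35 to 1.49 for Vulnerable minus Non Vulnerable and from -1.18 to -1.05 for Non Vulnerable minus Saline. With the rat number as a replicate block the Oprd1 log2 fold changes were 1.35 and -1.05 (edgeR adjusted p = 0.00658 and 0.0244). The block changed no other receptor's call. For Vulnerable minus Non Vulnerable it lowered the SE from 0.255 to 0.166 for Oprm1 and from 0.32 to 0.211 for Cnr1. The fall was smaller for Oprk1 (0.215 to 0.193) and Oprd1 (0.216 to 0.211). Same-numbered rats correlated at -0.137 to 0.19 in their deviations from group means, with 2 of 9 pairs above 0.1. Differently numbered rats correlated at -0.239 to 0.191, with 5 of 18 pairs above 0.1. With 3 rats per group these correlations cannot settle whether the numbers pair the rats. Leaving out a rat, the number called ranged from 1 to 2 for Vulnerable against Non Vulnerable, from 0 to 1 for Non Vulnerable against Saline, and stayed at 0 and at 1 in the other tests. Of the 10 log2 fold changes that missed the threshold, 6 crossed 0 when a rat was left out. Oprm1 ranged from -0.34 to 0.07 (Vulnerable minus Non Vulnerable), -0.02 to 0.40 (Non Vulnerable minus Saline) and -0.19 to 0.28 (Vulnerable minus Saline), Cnr1 from -0.06 to 0.61 and -0.31 to 0.30 in the last 2 of these, and Oprk1 from -0.12 to 0.33 in the last. The cause was not tested. The Cnr1 interval for Non Vulnerable over Vulnerable rats runs from 0.776-fold to 2.12-fold. Counts over all genes moved too, also with all 9 rats kept. Between Vulnerable and Non Vulnerable rats 2419 genes were called higher and 2631 lower, against 3282 and 896 when scaled by total counts alone; between Non Vulnerable and Saline rats 1091 and 1260 became 117 and 1857, or 663 and 1551 without the 10 most counted genes. Of 2351 genes called in the latter comparison, the number was 1164 with only those groups fitted, 3747 with DESeq2 and from 251 (without Saline rat 2) to 3615 (without Non Vulnerable rat 1) with a rat left out; it ran from 2798 to 5841 beside 5050 for Vulnerable against Non Vulnerable, and from 1070 to 4228 beside 3416 for any difference, where DESeq2 called 5222.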
